A study of Mus musculus with 5 samples.

Results

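The miR-29 family of the liver holds 3 mature miRNAs, mmu-miR-29a-3p, mmu-miR-29b-3p and mmu-miR-29c-3p, and the sites described here are the positions in Ago-bound RNA that were listed as matches of their seed. Ago HITS-CLIP crosslinks RNA to Argonaute proteins with ultraviolet light in the tissue, precipitates the complexes with antibodies and sequences the RNA that they hold, so that miRNAs and the mRNA fragments bound with them are read together. A table of miRNA-target interactions was used for each of 5 stages of C57BL/6 mouse liver, namely the embryo at e12.5, at e15.5 and then at e18.5, the pup at postnatal day 7 (P7) and the adult of 6 to 8 weeks, and the livers were irradiated 3 times at 254 nm with 0.2 J/cm2. Each stage had 1 table and no labelled replicate, so every difference below is a difference between tables, and intervals cover counting error only. Each embryonic table was the sum of 2 lists of entries, which no label calls replicates and which may be, while the P7 and adult tables held 1 list each. Ago2 antibodies were used for e12.5, e15.5 and e18.5, and the P7 and adult samples were precipitated with Ago2 and Ago1 antibodies, so that the antibodies and birth cannot be told apart in any comparison across birth. Entries were taken where the interaction name gave a family member as the miRNA, and entries at the same position were counted as 1 site. From the youngest to the oldest stage this gave 2329, 854, 866, 1497 and 1999 sites, and 5430 distinct sites among the 1578199 distinct site positions of all miRNAs in the 5 tables.

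A miRNA guides Argonaute to an mRNA mainly through its seed, bases 2 to 8 counted from its 5′ end, and the bound mRNA is usually translated less or degraded. miR-29 is known as a repressor of collagens and other genes of the extracellular matrix, in the liver chiefly in the stellate cells that lay down matrix in fibrosis, and as a repressor of the DNA methyltransferases and of the Tet enzymes that oxidise methylated cytosine. In mouse the family comes from gene pairs, Mir29a with Mir29b-1 on the minus strand of chromosome 6 and Mir29b-2 with Mir29c on the plus strand of chromosome 1 (GRCm38 hairpins from RefSeq, chr6:31062660-31062747, chr6:31063023-31063093, chr1:195037040-195037120 and chr1:195037547-195037634). The mature sequences from RefSeq (GRCm38.p6) are shown because the seed, in capitals, decided which sites were listed, and all 3 were the same in the deposited tables.
mmu-miR-29a-3p: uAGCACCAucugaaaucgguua
mmu-miR-29b-3p: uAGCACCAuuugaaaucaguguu
mmu-miR-29c-3p: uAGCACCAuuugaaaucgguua
The seed was identical in the 3 members, and no other miRNA of the tables had it. miR-29a-3p and miR-29c-3p differed by the substitution C10U, with positions counted from the 5′ end of miR-29a-3p. The member at work at a site could therefore not be read from the seed. Of the adult sites, 1976 of 1999 were listed for all 3 members, and at e12.5 this was so for 2296 of 2329.

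Ago-bound reads on markers of cell types differed greatly between the tables. Summed cluster reads on 6 erythroid markers (globins and red cell membrane genes, of which Hbb-b1 was not listed under that symbol) were 35916, 51494, 50825, 18199 and 879.8 per 1000000 cluster reads from e12.5 to adult, and those on 5 hepatocyte markers were 491, 1705, 4484, 5649 and 8038. The 6 stellate cell or fibroblast markers, Col1a1 and Col3a1 among them, gave 46.9, 32.2, 99.2, 186 and 80.8 per 1000000, with all 6 present in every table but that of e15.5, where 4 were. The 5 endothelial markers gave 14.6, 35.2, 66.8, 203 and 157 per 1000000 and were all present in each table. No leukocyte or cholangiocyte marker mRNA had a cluster at e15.5. The leukocyte miRNAs miR-142-3p and miR-223-3p were present there, at 371353 and 3357 reads per 1000000 miRNA reads. The red cell gene Slc4a1 had no cluster in the adult table. In whole liver, fewer cells of a type and less RNA per cell cannot be told apart, and the part of cell makeup in the differences below was not tested.

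All 3 members were far more abundant on Ago in adult liver than at any other stage. The number that each interaction name gives for its miRNA was taken as its read count and scaled to reads per 1000000 miRNA reads (rpm), with 7781484 to 25546696 such reads per table. miR-29a-3p, the most abundant member at every stage, stood at 529, 708, 737, 2175 and 16078 rpm from e12.5 to adult, and its rank among the miRNAs of a table was 110, 98, 100, 53 and 15. miR-29b-3p stood at 226, 306, 244, 265 and 4989.7 rpm, and miR-29c-3p at 103, 66.7, 61.0, 280.4 and 5196 rpm. The family summed to 858, 1081, 1042, 2720.4 and 26264 rpm in the same order, with Wilson 95% intervals of 846 to 869 for the first and 26199 to 26329.5 for the last, which was 2.63% of the adult miRNA reads.

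**Figure D1:**
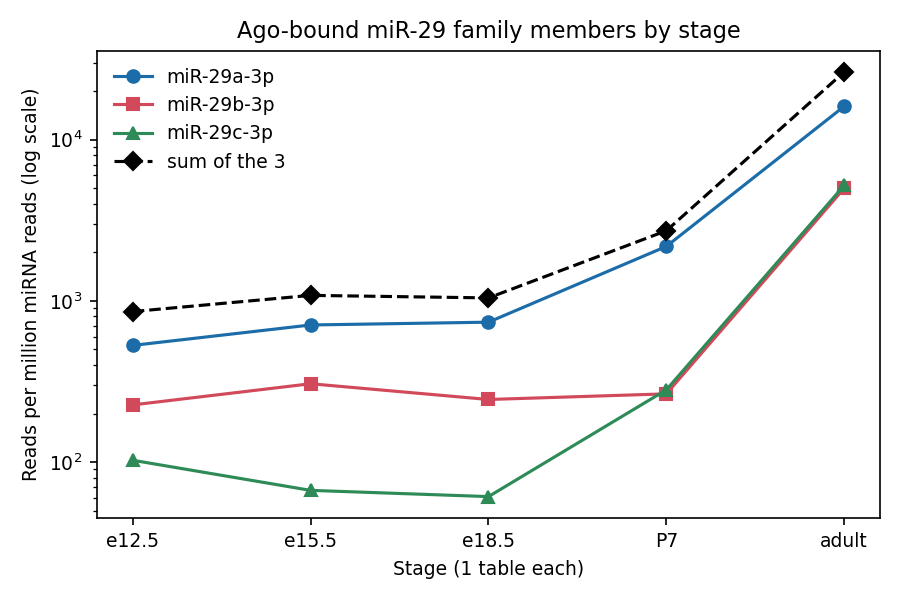
Reads per 1000000 miRNA reads (log scale) of the 3 family members and of their sum in the table of each stage. The sum lies between 858 and 1081 rpm at the 3 embryonic stages, at 2720.4 rpm at P7 and at 26264 rpm in adult liver.

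The members did not follow the same course. From e18.5 to P7, miR-29a-3p was 2.95-fold and miR-29c-3p 4.59-fold higher, while miR-29b-3p differed by only 1.08-fold. From P7 to adult the folds were 7.39-fold for miR-29a-3p, 18.8-fold for miR-29b-3p and 18.53-fold for miR-29c-3p. miR-29b-3p thus made up 26.4% of the family at e12.5, 9.74% at P7 and 18.998% in adult liver, and miR-29a-3p made up 61.7%, 80.0% and 61.2%. Between e12.5 and adult the family differed 30.6-fold, or 4.93 on the log2 scale after adding 1 rpm, and between P7 and adult, where the antibodies were the same, 9.65-fold. Of 231 miRNAs with at least 100 rpm in the e12.5 or adult table, 26.8% were at least 2-fold higher in the adult table, and so were all 3 members, at places 3 (miR-29c-3p), 5 (miR-29a-3p) and 9 (miR-29b-3p) of the 231. The median miRNA was 1.87 lower on the log2 scale. From P7 to adult, 10.3% of 203 miRNAs and again all 3 members passed 2-fold. Without miR-142-3p and miR-144-3p in the total, both abundant in blood cells, the family was still higher in the adult table, by 3.91 on the log2 scale.

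The opposite arms of the hairpins, which have other seeds, gave lower numbers. miR-29a-5p stood at 45.1, 83.3, 65.5, 26.6 and 89.4 rpm from e12.5 to adult, so that the 3p arm of miR-29a outnumbered the 5p arm 11.7-fold at e12.5, 81.6-fold at P7 and 180-fold in adult liver. miR-29c-5p stood at 16.8, 9.50, 52.4, 45.0 and 350.3 rpm, with ratios of the 3p to the 5p arm of 6.11, 7.02, 1.16, 6.23 and 14.8, so that the arms were nearly level at e18.5, at 475 and 408 reads. The 5p arms of miR-29b had at most 88 reads in any table.

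The 5 miRNAs whose course over the 5 tables was most like that of the family sum, by the root mean square difference of mean-centred log2(rpm + 1) values among 252 miRNAs with at least 100 rpm in 1 table, were miR-195a-5p (0.55), miR-192-3p (0.79), miR-29c-5p (0.81), miR-497a-5p (0.90) and miR-126a-3p (0.91). miR-195a-5p stood at 200.2, 286, 242, 1356 and 4001 rpm. miR-126a-3p, of endothelial cells, stood at 5998, 9499, 12451, 12777 and 50491 rpm. A lower number is a closer likeness, and 5 tables allow no more than this description.

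Clusters of Ago-bound reads held a miR-29 site about as often at the first 4 stages and more often in adult liver. Of the 3′UTR clusters that were listed in the e12.5 table, 512 of 39452 held a site (1.30%, Wilson 95% interval 1.19 to 1.41). The later embryonic tables gave 215 of 18219 (e15.5, 1.18%, 1.03 to 1.35) and 185 of 16150 (e18.5, 1.15%, 0.993 to 1.32). The P7 table gave 380 of 29603 (1.28%, 1.16 to 1.42) and that of the adult 396 of 15914 (2.49%, 2.26 to 2.74). The first 4 intervals overlapped one another and none of them reached the adult interval. The adult share was 1.92 times that of e12.5 and 1.94 times that of P7. With sites of at least 7 matched bases only, the shares were 0.583%, 0.609%, 0.533%, 0.618% and 1.502%, and the ratio of adult to e12.5 was 2.58. Clusters in coding sequence (CDS) gave 1.41%, 1.33%, 1.40%, 1.33% and 2.61%. In 3′UTRs the miR-29 seed held place 107 of 629 seed families by this share at e12.5 and place 13 of 488 in adult liver.

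**Figure D2:**
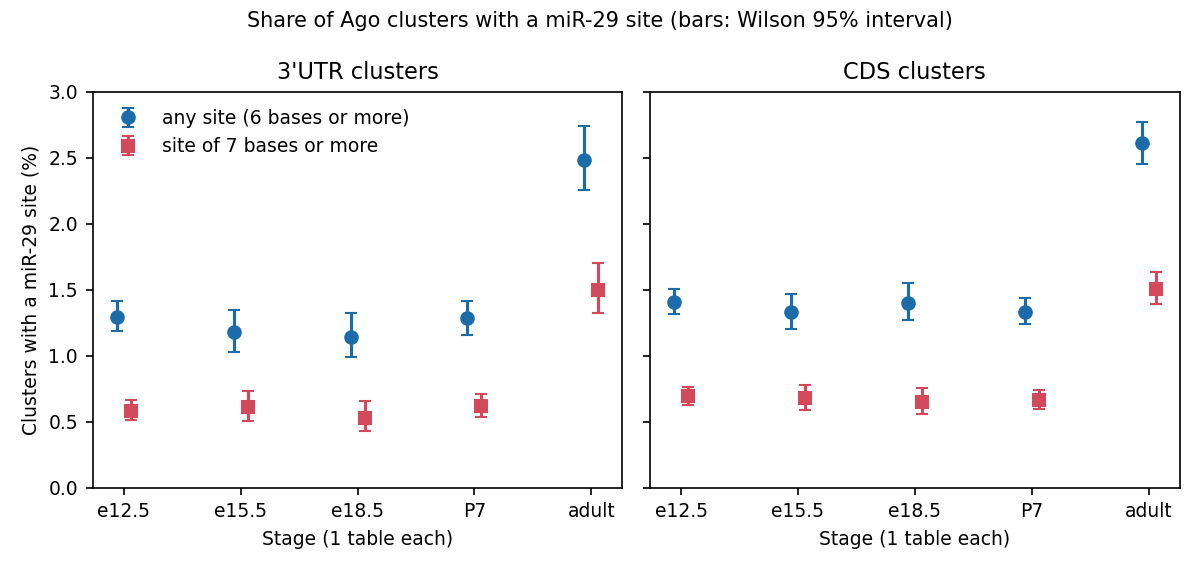
Share of listed Ago clusters that held a miR-29 site in each stage's table, for 3′UTR clusters (left) and CDS clusters (right), as points with Wilson 95% intervals, for any site and for sites of 7 bases or more. In both panels the 4 earlier stages lie close together and the adult point lies above their intervals, at 2.49% and 2.61% for any site.

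The miR-29 seed was 1 of several whose share was larger in adult liver. Families were compared where each of the e12.5 and adult tables had 50 or more of their 3′UTR clusters, and of these 307 families 10.7% had a share at least 1.5 times as large in adult liver, and miR-29 stood at place 14. Among those ahead of it were abundant liver miRNAs, miR-122-5p at 3.63 times, the let-7 seed at 2.97, miR-194-5p at 2.04 and the miR-30 seed at 1.93. The others ahead were miR-3966 (place 1, 4.10), miR-3068-5p (3.32), miR-6908-3p (3.23), let-7j (2.93) and miR-3057-5p (2.66). After these came miR-5114 (2.08), miR-3970 (2.07), the miR-196b-5p seed (2.05) and miR-1839-5p (2.05). miR-196b-5p itself stood at 1298 rpm at e12.5 and 12.8 rpm in adult liver. The median family had 0.955 times its e12.5 share. From P7 to adult, 4.59% of 327 families passed 1.5 times, and miR-29 stood at place 3 behind miR-28a-3p and miR-3102-3p, while miR-122-5p stood at 1.40 times and the let-7 seed at 1.36. miR-3102-3p shares bases 2 to 7 of the miR-29 seed, so the same hexamers are listed for it, in 393 adult 3′UTR clusters where miR-29 had 396, and it had 224, 55, 2, 21 and 45 reads of its own in the 5 tables. In coding sequence, 9.52% of families passed from e12.5 to adult and 9.73% from P7 to adult, with miR-29 at place 14 of 378 and at place 1 of 401. The seed of miR-29a-5p had 0.763 times its e12.5 share of 3′UTR clusters in adult liver.

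**Figure D3:**
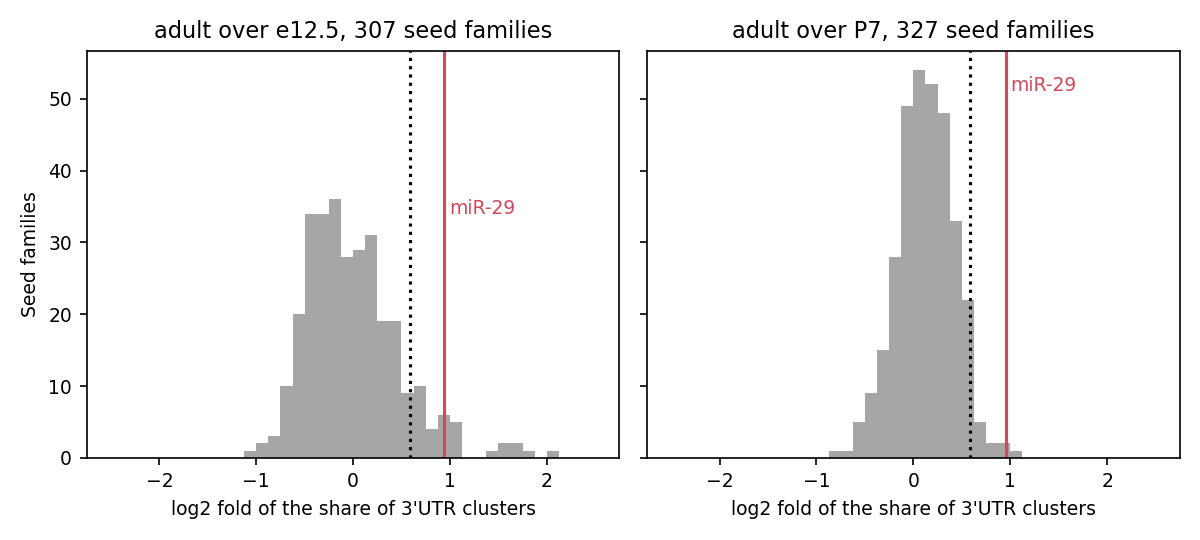
Number of seed families by the log2 fold of their share of 3′UTR clusters, adult over e12.5 (left, 307 families) and adult over P7 (right, 327 families), with miR-29 as a red line and the 1.5-fold limit as a dotted line. miR-29 lies in the right tail of both, at 1.92-fold and 1.94-fold.

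The difference was about as large within the genes that both tables covered. For 4628 genes with a 3′UTR cluster in the adult and the e12.5 table, 385 of 28653 clusters at e12.5 (1.34%) and 346 of 13829 in adult liver (2.50%) held a site, a ratio of 1.86. For 4893 genes shared by P7 and adult liver the ratio was also 1.86. Counted over genes, it was much smaller. Of 8411 genes with a 3′UTR cluster at e12.5, 472 had a miR-29 site there (5.61%, 5.14 to 6.12), and of 5752 in adult liver, 380 (6.61%, 5.99 to 7.28), a ratio of 1.18. The e12.5 table held 39452 3′UTR clusters over its 8411 genes and that of the adult 15914 over 5752. For the tables in between, in order of age, the shares of genes were 3.54%, 3.01% and 4.45%.

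Adult sites in 3′UTRs were longer matches to the seed. The tables name 4 types, 6mer (bases 2 to 7 matched), 7mer-A1 (these and an A opposite base 1), 7mer-m8 (bases 2 to 8) and 8mer (both). The 6mer made up 55.1%, 48.4%, 53.5%, 51.8% and 39.9% of the miR-29 3′UTR sites from e12.5 to adult, and the 8mer 7.23%, 7.44%, 9.19%, 8.42% and 13.1%. In the adult table this was 52 8mers of 398 sites (Wilson 95% interval 10.1 to 16.7%), against 37 of 512 at e12.5 (5.29 to 9.80%). The sites of all other seed families had 54.1% 6mers and 7.53% 8mers in adult liver and 54.1% and 7.39% at e12.5. Sites of at least 7 bases were 44.9% of the family's 3′UTR sites at e12.5, 48.2% at P7 and 60.1% in adult liver (55.2 to 64.7). An increase of 10 percentage points or more from e12.5 to adult was seen in 5.21% of 307 seed families, among them miR-29 at place 4, and from P7 to adult in 4.28% of 327, with miR-29 at place 9. In coding sequence, sites of at least 7 bases made up 49.4% at e12.5 and 57.8% in adult liver.

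**Figure D4:**
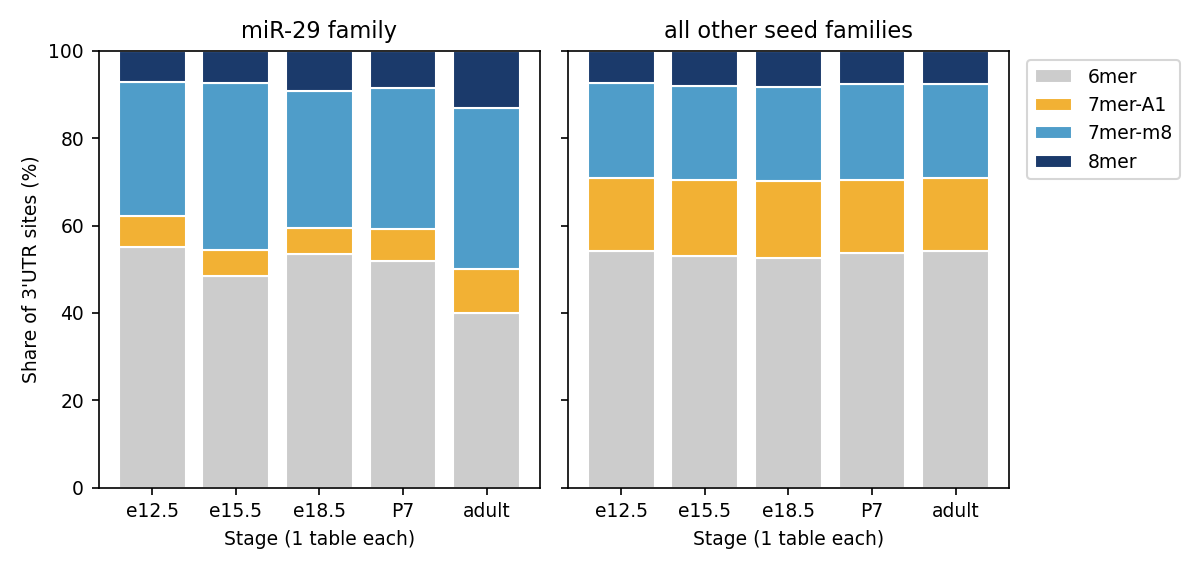
Share of 3′UTR sites of each seed type in the table of each stage, for the miR-29 family (left) and for the sites of all other seed families (right), as stacked bars that add up to 100%. The miR-29 bars of the 4 earlier stages have 48.4 to 55.1% 6mers and the adult bar 39.9%, while the bars of the other families are nearly level.

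The 7mer-m8 was more frequent for miR-29 than for other families, and the 7mer-A1 less so, at every stage. In the adult 3′UTR sites 36.9% were 7mer-m8 and 10.1% 7mer-A1, against 21.6% and 16.7% in the other families. At e12.5 they were 30.7% and 7.03%, against 21.8% and 16.7%.

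The deposited conservation score of a site runs from 0 to 1, and the method behind it is not given in the sources used here. Its median over miR-29 3′UTR sites was 0.2995, 0.779, 0.736, 0.514 and 0.859 from e12.5 to adult, against 0.305, 0.537, 0.362, 0.192 and 0.272 for the sites of other families. Adult and e12.5 medians differed by 0.559 for miR-29, at place 2 of 307 seed families, and the median family differed by -0.036. Adult and P7 medians differed by 0.3445, at place 12 of 327. Among sites of at least 7 bases the miR-29 medians lay closer together, at 0.723 for e12.5 and 0.945 for the adult. The share of miR-29 3′UTR sites with a score of at least 0.9 covered a narrower range, 39.1% at e12.5 (34.9 to 43.4) and 46.2% in adult liver (41.4 to 51.1), and these intervals overlapped. Within the adult sites, the median was 0.343 for 6mers and 0.992 for 8mers. In coding sequence the adult median was 0.949, and that of other families 0.940.

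The place of the sites in the mRNA was compared with that of the sites of other families. Of the miR-29 sites, 21.98% lay in a 3′UTR and 35.3% in a CDS at e12.5, and 19.9% and 51.0% in adult liver. Sites of other families were at 22.9% and 34.4% in the e12.5 table, and at 19.6% and 53.0% in adult liver. In the tables of e15.5 and e18.5, 44.0% (Wilson 95% interval 40.7 to 47.4) and 43.6% (40.4 to 47.0) of miR-29 sites lay in a CDS, against 39.3% and 40.0% in other families. The shares in 5′UTRs were between 1.99 and 3.70%, with 3.56% at e12.5 (2.88 to 4.40) against 2.512%. Introns held 27.7% of the miR-29 sites at e12.5 (25.9 to 29.5) and 24.2% in the adult (22.4 to 26.1), against 24.5% and 20.7%. Intergenic sites made up 17.3%, 14.99%, 17.8%, 12.2% and 8.65% of the miR-29 sites from e12.5 to adult, below the 20.8%, 20.7%, 21.2%, 14.5% and 11.8% of other families at each stage. A site counted in more than 1 of these regions where transcripts overlap. The deposited free energy of the predicted duplex, whose unit is not stated, had a median of -11.4 for miR-29a-3p, -10.9 for miR-29b-3p and -11 for miR-29c-3p over 392 adult 3′UTR sites listed for all 3, and miR-29a-3p was the lowest of the 3 at 147 sites, miR-29b-3p at 107 and miR-29c-3p at 34.

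Whether reads at a site found at e12.5 and again in the adult were higher in the adult depended on the scaling. A site's reads are the highest read number of its cluster, at least 5, though the column has another name at e12.5 and may hold another measure there, which bears on every comparison of site reads with e12.5. The median over miR-29 3′UTR sites was 32, 28, 24, 17 and 24 reads from e12.5 to adult, against 34, 37, 30, 17 and 26 for the sites of other families. Scaled to the summed reads of the listed clusters, 98 sites were listed in the adult and the e12.5 table with at least 20 reads in 1 of them. Of these, 49 were higher in adult liver, and the median difference was 0.02 on the log2 scale. For 11659 such sites of other families, 51.3% were higher and the median was 0.08. Scaled to the reads of 3′UTR clusters, every difference is larger by 1.55 on the log2 scale, and 86 of the 98 sites were higher (87.8%), against 77.8% of those of other families. Summed over all miR-29 3′UTR sites, the scaled reads were 926 per 1000000 at e12.5 and 906 in adult liver, a difference of -0.03 on the log2 scale. This sum has no settled direction, and its sign depended on the scaling and on the sites taken. The 3′UTR clusters themselves held 5743096 of 44867326 cluster reads at e12.5 and 1088720 of 24885228 in adult liver. Scaled to the reads of 3′UTR clusters instead, the sites had 7236, 4863, 4657, 8400.3 and 20719 reads per 1000000 from e12.5 to adult, and the adult value was higher than that of e12.5 by 1.52 on the log2 scale.

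The 3′UTR site with the most reads at e12.5 lies inside another miRNA. It is a 6mer in the 3′UTR of Dvl2, a Wnt signalling gene, and the hairpin of Mir324 covers the same bases of the same strand. It had 7443, 1672, 1394, 655 and 2120 reads from e12.5 to adult, 17.9% of all reads on miR-29 3′UTR sites at e12.5 and 9.40% in adult liver. It was the only 3′UTR site inside a RefSeq miRNA hairpin, and reads of miR-324-3p and of Dvl2 mRNA cannot be told apart there. miR-324-3p stood at 340, 69.3 and 107 rpm at e12.5, P7 and in adult liver, where the site had 7443, 655 and 2120 reads. How many of the site's reads are the miRNA was not tested. The sequence of the site is shown with the 6 matched bases in capitals, as those of the target sites below.
Dvl2 and Mir324, 3′UTR and hairpin, 6mer, chr11:70012089-70012116, plus strand: ggagacccactgccccaGGTGCTgctgg

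Few sites recurred at every stage. Of 1160 distinct 3′UTR sites, 806 were listed in 1 table and 9 in all 5, and of 2134 in coding sequence 1400 and 34. Site positions of all miRNAs were 766266, 241406, 221587, 498721 and 295769 by stage, and 1578199 distinct ones in all. Recurrence was not counted for other seed families, so it is not shown to be particular to miR-29. Beside the site in Dvl2, the 9 3′UTR sites of all 5 tables lay in Pitpnm2, Irf2bp2, Atp5o, Nfe2, Dcbld1, Kng2, Slc38a7 and Tmbim6. Only the site in Nfe2, a transcription factor of erythroid cells and megakaryocytes, had more than 6 matched bases. This 8mer had 187, 12, 108, 31 and 10 reads from e12.5 to adult. The site in Irf2bp2, a transcriptional corepressor, had 131, 220, 133, 149 and 30 reads. That in Kng2, a kininogen gene of the liver annotated there as CDS and 3′UTR, had 8, 26, 36, 12 and 180. The log2 difference of scaled reads, adult against e12.5, was -3.37 for Nfe2 and 5.34 for Kng2. The site in Atp5o, an ATP synthase subunit, lay between these, with a log2 difference of 1.35, at 106, 49, 55, 20 and 150 reads. It was annotated as exon, 3′UTR, CDS and intron.

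Among 3′UTR sites listed in the adult and the e12.5 table with at least 20 reads in 1 of them, the 5 with the largest positive difference lay in Ahsg, Kng2, Rgs16, Canx and Spr. The Spr site was annotated as CDS and 3′UTR. Ahsg, which encodes the secreted liver protein fetuin-A, had 20 reads at e12.5, none listed at e15.5, and 257, 456 and 2240 in the later tables. This is 7.66 on the log2 scale after scaling, and the site held more reads than any other miR-29 3′UTR site of the adult table. The 5 with the largest negative difference lay in Pex19, Nfe2, Mafg, Map2k3 and Umps. The Umps site was annotated as 3′UTR and CDS. The 7mer-m8 of Mafg, a small Maf protein that pairs with Nfe2, had 284 and 43 reads in the first 2 tables, 7 at P7 and 23 in the adult table. The level of the mRNAs was not measured in these tables, so more mRNA and more binding per mRNA cannot be told apart.

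Target genes were counted by their 3′UTR sites. In all, 1018 genes had a miR-29 3′UTR site in at least 1 table, which was 9.2% of 11065 genes with any 3′UTR cluster. Of these, 372 were found in at least 2 tables and 14 in all 5. The e12.5 and adult tables shared 121 genes, 25.6% of the e12.5 genes and 31.8% of the adult genes. P7 and adult shared 123, or 34.1% and 32.4%. There were 176 genes found in the adult table only, 46.3% of its 380, and 161 of them had a 3′UTR cluster of some other kind at another stage. The e12.5 table had 3′UTR clusters in 8411 genes and that of the adult in 5752. The same overlaps were not computed for other seed families, so they cannot be read as particular to miR-29. Several sites in a 3′UTR were uncommon, with 124 genes holding at least 2 and 18 at least 3. Tet3 and Mafg had the most, 5 each.

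The gene lists hold many genes already known as miR-29 targets, so their shares describe those genes and are no test of a class of genes. Genes with more clusters also have more chances to hold a site, and the share of clusters is given beside that of genes. Of 25 collagen genes, 21 had a 3′UTR cluster and 10 of those a miR-29 site in at least 1 table (47.6%, against 9.2% over all genes), with 8.81 clusters per gene over the 5 tables against 10.8 over all genes. Of the 3′UTR clusters of collagens, 12 of 185 held a site when the 5 tables were added up (6.49%, Wilson 95% interval 3.75 to 10.99), against 1.41% of all 119338, where a region found at several stages counts each time. By stage this was 0 of 39 at e12.5, then 2 of 17 and 0 of 30 in the later embryonic tables, 5 of 58 for P7 and 5 of 41 for the adult. The upper Wilson bounds of the shares at 0 were 8.97% and 11.4%, and 3 clusters of the total, the limit taken for a count of 0, would be 7.69% and 10%. Cluster reads on collagen mRNAs, whatever the miRNA, were 171, 220.2, 465, 795 and 287 per 1000000. Each of the 12 sites was listed at a single stage, 4 of them were 8mers and 10 had at least 7 bases. Col4a1, a chain of basement membrane collagen, had an 8mer with a conservation score of 1 and 159 reads in the adult table. Col5a1, a chain of fibrillar collagen V, had 3 sites, 8mers with 20 reads at P7 and 18 in adult liver and a 7mer-m8 with 66 reads in adult liver. Col4a2 had a 7mer-m8 with 43 reads at P7, Col3a1 a 6mer with 31 reads at P7, and Col1a2 a 6mer with 26 reads in adult liver. The others were in Col5a3, Col6a1, Col6a2, Col11a1 and Col27a1, with 9 to 24 reads. Col1a1, the main chain of type I collagen, had 3′UTR clusters at 4 stages and no miR-29 site among them. The 8mers are shown because they carry the whole seed match, in capitals with the A opposite base 1.
Col4a1 3′UTR, chr8:11199757-11199784, minus strand: tgccaccgtcacaacaTGGTGCTActcc
Col5a1 3′UTR, P7, chr2:28038018-28038045, plus strand: ttacacttgtctcttgTGGTGCTAtgtg
Col5a1 3′UTR, adult, chr2:28038334-28038361, plus strand: agttgctgaatgtttgTGGTGCTAatct
Col6a2 3′UTR, adult, chr10:76596166-76596193, minus strand: ctctccatcccatctgTGGTGCTAatag

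Collagen mRNAs also held sites in their coding sequence. There were 33 such sites in 10 collagen genes and 2101 in all other genes, and the share of CDS clusters with a site was not computed for collagens. Col3a1 had 9 sites and Col1a1 8, more than any other gene. From e12.5 to adult Col3a1 had 1, 0, 0, 6 and 4 of them and Col1a1 2, 0, 1, 6 and 3. Reads at the single sites of both genes were between 5 and 75. In 29 of the 33 the hexamer GGTGCT lay in frame, as the codons GGT and GCT (87.9%, Wilson 95% interval 72.7 to 95.2), which read as glycine and alanine and recur in the repeats of the collagen helix. In the other genes the hexamer was in frame in 641 of 2025 CDS sites with 1 reading frame (31.7%, 29.7 to 33.7). Elastin, the other repeat-rich matrix protein, had no 3′UTR cluster and 4 CDS sites in Eln, all at P7 with 8 to 12 reads.

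The other genes of the matrix and its assembly held sites about as often as genes at large. Of 38 with a 3′UTR cluster, at 11.2 clusters per gene, 4 had a miR-29 site (10.5%, against 9.2%), and 6 of 424 clusters did (1.42%, 0.6501 to 3.05). Those 4 were Sparc, Mmp2, Plod1 and Lamc1. Sparc, a secreted protein that binds collagen, had neighbouring 7mer-A1 sites, both with a score of 1. The upstream one had 80 reads at P7, and the downstream one 19 at e12.5 and 97 in adult liver. Mmp2, a matrix metalloproteinase, had 69 reads at e12.5 only. Lamc1, a laminin chain, had an 8mer with 21 reads at e12.5 in a stretch annotated as 3′UTR and CDS. Plod1, a lysyl hydroxylase, had a 7mer-m8 with 15 reads at e18.5.
Sparc 3′UTR, upstream, chr11:55395465-55395492, minus strand: gttccgcctggggataaGGTGCTAacat
Sparc 3′UTR, downstream, chr11:55395432-55395459, minus strand: taactgaatacattaacGGTGCTAaaaa

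Genes of DNA methylation and demethylation held sites in few members but at several stages. Of 22 with a 3′UTR cluster, at 16.3 clusters per gene, 4 had a miR-29 site, Dnmt3a, Tet2, Tet3 and Mbd3 (18.2%, against 9.2%). Over the clusters, 14 of 359 held a site (3.90%, 2.34 to 6.44), as 2 of 125, 2 of 47, 2 of 38, 4 of 113 and 4 of 36 from e12.5 to adult. Cluster reads on these mRNAs, whatever the miRNA, were in the same order 432, 409, 275, 264 and 84.2 per 1000000. Tet3 had 2, 2, 1, 1 and 2 sites from e12.5 to adult, at 5 different positions with 5 to 35 reads. Much of the list's share of clusters thus rests on this 1 gene, counted at each stage. Dnmt3a, a de novo DNA methyltransferase, had a 6mer with 55 reads at e18.5, a 7mer-A1 with 10 reads at P7 and 27 in adult liver, and a 7mer-m8 with 10 reads at P7 in a stretch annotated as CDS and 3′UTR. Tet2 had a 7mer-m8 with 56 reads in adult liver, and Mbd3 a 6mer with 10 reads at P7. Dnmt3b had 3′UTR clusters in 3 tables without a miR-29 site. Dnmt1, the maintenance methyltransferase, had 4 CDS sites and none in the 3′UTR, with 26 to 238 reads at e12.5 and 76 at P7.
Dnmt3a 3′UTR, 7mer-A1, chr12:3912651-3912678, plus strand: aggaggtgactcaacacGGTGCTAaaca
Tet2 3′UTR, 7mer-m8, chr3:133466328-133466355, minus strand: cagttgcaggatcatcTGGTGCTgacgt

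The list of survival and growth signalling had 25.3 clusters per gene. Of 18 with a 3′UTR cluster, 9 had a miR-29 site (50%, against 9.2%), and 13 of 456 clusters did (2.85%, 1.67 to 4.82, against 1.41%). These were 9 sites, 7 of them in 1 table and that of Mcl1 counted 4 times. By stage they were 2 of 131, 2 of 57, 0 of 62, 3 of 125 and 6 of 81 from e12.5 to adult. Mcl1, an antiapoptotic protein of the Bcl2 family, had an 8mer with 64 and 42 reads in the first 2 tables, 13 at P7 and 100 in the adult table, and was not listed at e18.5. No other site of the gene lists was found at 4 stages. Bbc3, its proapoptotic counterpart Puma, had a 7mer-m8 with 19 reads at P7 and 22 in adult liver. Pik3r1, the regulatory subunit of PI3 kinase, had a 7mer-m8 with 16 reads at e12.5. Pdgfb, Pdgfc, Igf1, Ccnd2 and Cdc42 had 1 site each at a single stage, with 7 to 24 reads.
Mcl1 3′UTR, 8mer, chr3:95661843-95661870, plus strand: gctagagtcttaaccaTGGTGCTAttca

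Of 12 genes of hepatic metabolism with a 3′UTR cluster, at 33.3 clusters per gene, 4 had a site, G6pc, Hbp1, Dbt and Slc16a1 (33.3%, against 9.2%), and 9 of 399 clusters did (2.26%, 1.19 to 4.23), an interval that includes the 1.41% of all clusters. G6pc, the glucose-6-phosphatase of gluconeogenesis, had a 7mer-m8 with 19 reads at e18.5 and 147 in adult liver. Dbt, a subunit of the branched-chain ketoacid dehydrogenase, had a 7mer-m8 with 7 reads at e15.5, 13 at P7 and 64 in adult liver. Hbp1, a transcriptional repressor, had an 8mer with 35, 60 and 18 reads at e12.5, e15.5 and in adult liver. Slc16a1, a monocarboxylate transporter, had a 7mer-m8 with 123 reads at e12.5 only.
G6pc 3′UTR, 7mer-m8, chr11:101377507-101377534, plus strand: gtaggcaactgtttgtTGGTGCTtttgt
Hbp1 3′UTR, 8mer, chr12:31927208-31927235, minus strand: gaaaattgatatcctgTGGTGCTAaagt

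**Figure D5:**
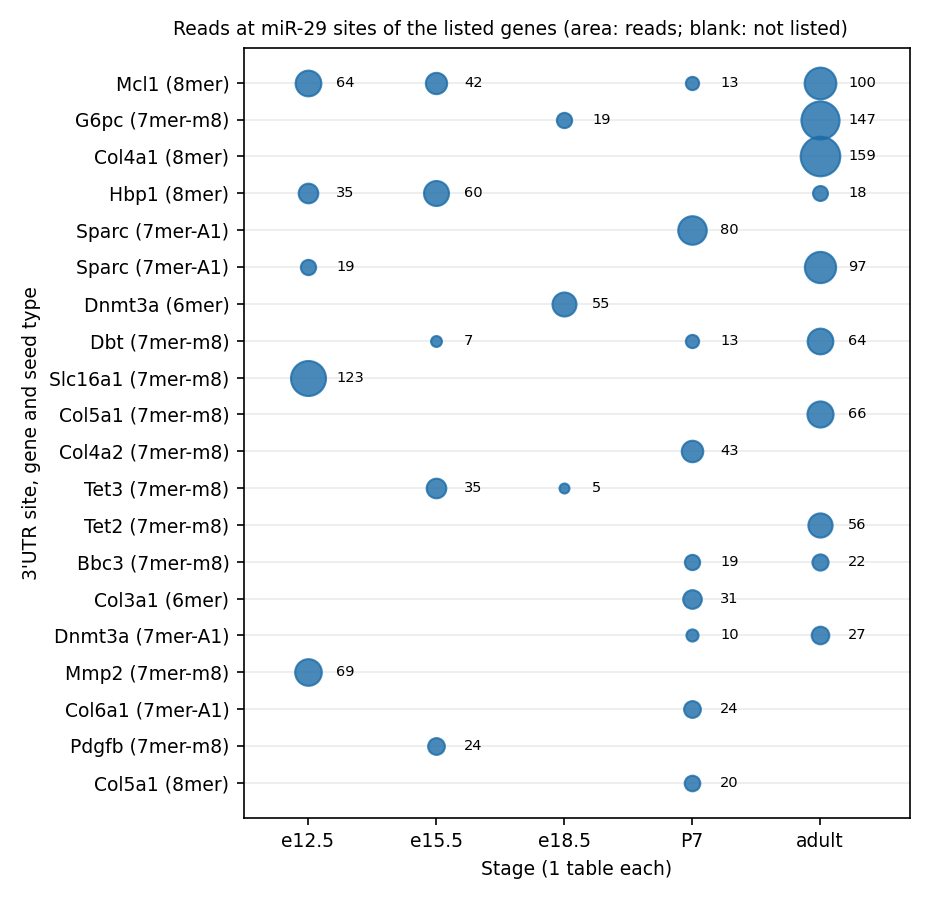
Reads at 20 miR-29 3′UTR sites of genes in the 5 gene lists, those with the highest mean scaled reads, by stage, with the area of a point growing with the reads and no point where a site was not listed. Most sites appear at 1 or 2 stages, and that of Mcl1 appears at 4, with 100 reads in adult liver.

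Over the 5 lists, 40 miR-29 3′UTR sites were found, 19 of them in adult liver and 9 at e12.5. Of the 40, 34 had at least 7 matched bases, 9 were 8mers and 28 had a conservation score of at least 0.9. Of all 1160 miR-29 3′UTR sites, 51.4% had at least 7 bases, 8.45% were 8mers and 39.7% had such a score.

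In coding sequence the sites with the most reads lay in mRNAs typical of red cells, hepatocytes and dividing cells. The 7mer-m8 in the α-globin genes Hba-a1 and Hba-a2 had 10722, 9013, 5984, 2223 and 182 reads from e12.5 to adult. The 28 bases around it are the same in both genes, so that the reads cannot be assigned to either, and 561 of the 5430 miR-29 sites shared such a window with another listed site. The 7mer-m8 in Apoa1, the main protein of HDL, had 386, 603, 949, 613 and 4843 reads. That in Slc4a1, the red cell anion exchanger, had 2101, 1646, 713 and 430 reads and was not listed in adult liver. The 6mer in Hist1h2bj, a histone gene, had 3048, 1703, 597 and 163 reads and was also not listed there. Plg, plasminogen, had 5 CDS sites, of which 3 were 8mers, and one of these had 32, 162, 160 and 160 reads from e15.5 to adult. Apoa1 is shown as the CDS site with the most reads in adult liver.
Apoa1 CDS, 7mer-m8, chr9:46228951-46228978, plus strand: ttcaggatgaaagctgTGGTGCTggccg

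In 5′UTRs the sites with the highest mean scaled reads lay in Asgr1, Serpind1 and Rnf26. Those in Asgr1 and Serpind1 are also annotated as intron and had conservation scores of 0 and 0.001. Asgr1, the hepatocyte asialoglycoprotein receptor, had a 7mer-m8 with 195 and 35 reads at e18.5 and P7 and 839 in the adult table. Serpind1, heparin cofactor II, had a 7mer-m8 with 31, 157, 138, 95 and 58 reads from e12.5 to adult. Rnf26 had a 6mer with 174, 219 and 40 reads in the embryonic tables and 44 in the adult table.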

How the data were processed

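Reads were filtered by the authors with the FASTX-Toolkit, aligned with Bowtie to mm10 and precursors of miRBase release 19, grouped into clusters, annotated with UCSC refGene and Ensembl genes and scanned for seed matches. Versions of the tools are not given in the sources used here, and the submitters' processing notes name mm9 beside mm10. The deposited read column is a signal, whole numbers from 5 upwards with no scaling, under another column name at e12.5, where it may be another measure. The deposited conservation value and duplex energy are a score each. The number in an interaction name, which the tables do not explain, was taken as the reads of the miRNA. For Ago2 the study's methods speak of 2 biological replicates, but each stage is labelled as 1 sample. The study lists a second e18.5 library, and whether its entries are in the e18.5 table is not known.

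The family members and the gene lists were chosen with earlier results of these data known. Entries were collapsed by the position of the 6 bases opposite miRNA bases 2 to 7, which matched the GRCm38 sequence at all 5430 sites. Each embryonic table is made of 2 lists, seen from the miRNA order, which restarts once, and these may be replicates, which no label says. The highest reads of a site and of a miRNA within a list were taken, and the lists were added up. Depth was 76948 to 208193 listed clusters per table. Shares carry Wilson 95% intervals, and no test was run, since no stage has a second table. Calls were made at 2-fold for miRNAs and at 1.5-fold for families of at least 50 clusters.

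Genes were named if they belonged to 1 of 5 lists and had a 3′UTR site, or if their sites were in all 5 tables (10 at most), among the 5 largest differences in either direction, or among the 5 CDS and 3 5′UTR sites of highest mean scaled reads. Plg, Eln and list members without a 3′UTR site were named for other features after their values were seen, and 1 list member with a site is not reported here. Reading frames came from GENCODE for the same build. Python 3.11.15, numpy 2.4.6 and pandas 2.3.3 were used, and the family comparison and the intervals were tested on simulated data. Alternatives were other seed lengths, a minimum of 10 reads, single lists, other totals and other units.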

Additional observations from a re-analysis of the deposited data

How the results depend on the processing

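No paired analysis was possible because each stage has 1 table and no replicate numbers are shared between stages. No labelled library could be left out within a stage, and the 2 lists of an embryonic table were taken alone in turn instead. Of 88 alternatives, 51 left the value within its interval or the count within 1.5 times, 31 were counted as moving it and 6 turned its sign. At each stage, the share of sites with a conservation score of at least 0.9 is among the 31. That share is a percentage and was set against the interval of a median score. The difference in unit means that these entries cannot tell whether the result moved.

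The log2 difference of family abundance between adult and e12.5 (4.93) was 4.43 with gene copies added up, 3.91 without miR-142-3p and miR-144-3p, 5.25 with the first list of e12.5 and 4.86 with the second. The ratio of cluster shares (1.92) was 2.58 for at least 7 bases, 1.18 over genes and 2.32 with the first list. The 3′UTR share of sites was 17.4% and 24.0% in the first and second list at e12.5, 20.1% in the first at e15.5 and 24.9% in the second at e18.5. The 8mer share over all regions was 4.77% at e12.5 and 9.90% in the adult. In 3′UTRs, the 8mer share in the first list of e15.5 was 0, with an upper Wilson bound of 11.4%. With at least 7 bases, the median conservation score was 0.723 at e12.5, 0.951 at e18.5, 0.795 for P7 and 0.945 for the adult, so that the medians of e12.5 and the adult lay closer together. The share of sites scored at least 0.9 was 39.1%, 43.7%, 44.9%, 38.4% and 46.2% from e12.5 to adult.

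The summed reads of 3′UTR sites, adult over e12.5, had no stable sign. From -0.03 on the log2 scale they went to 0.27 with the study's library totals, 0.10 without the top site of each table, 0.53 for at least 7 bases, -0.53 with the first list, 0.30 with the second, 1.52 per 3′UTR cluster reads and 0.11 without the site in a miRNA hairpin. The count of shared sites higher in the adult went from 49 to 86 of 98 per 3′UTR cluster reads. The scaling to 3′UTR cluster reads, the omission of the hairpin site and the ratio within shared genes were chosen after seeing the data. The cause was not tested.

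Found at 2 stages or more were 1 collagen, 1 other matrix gene, 2 genes of DNA methylation and 2 of survival and growth signalling. Over any region of the mRNA, 9 other matrix genes had a site. With at least 7 bases, 1 site was listed in all 5 tables in place of 9. The lowest read number listed was 5, so sites with fewer reads are not seen, and the sites of the gene lists rest on 5 to 159 reads.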
